A study of Mus musculus with 2 samples.

Results

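Collagen chains are described here in preglomerular arterioles, the small arteries that feed the glomeruli of the kidney. The chains are the genes whose symbol in the authors' annotation starts with Col, a type number, the letter a and a chain number. That pattern matched 41 of the 22314 named genes, of which 40 encode collagen chains and make up the set. The remaining match, Col4a3bp, encodes a ceramide transfer protein now named Cert1 and was kept apart. The chains were sorted into 11 fibrillar, 8 basement membrane and 21 other chains. Col26a1 carries its older name Emid2 in the annotation and so lies outside the pattern, and 3 type VI chains, Col6a4, Col6a5 and Col6a6, were not analysed here.

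The series holds 2 arrays, each hybridised with pooled RNA. All animals carried RBP-J flox/flox and the R26R ECFP reporter. The wild type array took RNA of 3 of them (2 males and 1 female) that were Ren1d+/+. The cKO array took RNA of 4 males that were Ren1d+/cre, where cre at the renin locus removes RBP-J, the DNA-binding effector of Notch, from renin cells and their descendants. Both pools came from mice 3 months old on a mixed 129Sv and C57Bl6 background. The groups thus differ in cre and in 1 intact Ren1d allele as well as in RBP-J. They differ in sex too, and the effects of sex and genotype cannot be told apart. The comparison asks how the arterioles' gene expression differs when renin cells and their descendants lack RBP-J. Since each genotype has a single array, there was no replicate spread to test against, and precision is limited by the number of arrays.

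Collagens are secreted or membrane-bound proteins built of chains that wind into a triple helix, held by a glycine at regular steps along each chain. Fibrillar collagens assemble into the tensile fibrils of the vessel adventitia and the interstitium. Type IV collagen forms the sheet-like network under endothelium, smooth muscle, podocytes and tubule cells, and in the glomerular basement membrane the mature network is built of the alpha 3, alpha 4 and alpha 5 chains, which podocytes make. The vessels were freed with collagenase, which digests the collagen protein, whereas the arrays measured its RNA.

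Levels are RMA values on the log2 scale, and differences are cKO minus wild type in log2 units. The floor was set at 7.66, the median over named probe sets of the value on whichever array was brighter, and a gene passed it if either array did. This held for 11221 genes and for 22 of the 40 chains. Col11a2 at 7.69 and Col9a2 at 7.72 lay just above the floor, and Col7a1 at 7.58 and Col9a3 at 7.53 just below it. Among the 11221 genes the differences had a median of 0.02, with quartiles of -0.12 and 0.20. The deleted gene Rbpj read 9.0 in wild type and 9.02 in cKO on its brighter probe set. Deletion is limited by design to the renin lineage and the probes' place in the gene was not determined, so Rbpj gives no check of the labels. Ren1, which encodes renin, read 10.77 and 10.19. The smooth muscle genes Acta2, at 11.21 and 11.36, and Myh11, at 9.53 and 9.37, were well above the floor, but so were all 8 podocyte and all 8 tubule markers listed, so the preparation held RNA of those cells too.

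Collagen chains mostly differed little between the pools, as most genes did. In the cKO pool none of the 22 chains above the floor was higher by 1.5-fold or more, where 4.15% of all genes above the floor were. None was lower by as much, where 1.60% of all genes were. Shares this small leave few or no calls among 22 genes, so these counts do not set the chains apart. In the authors' dChip processing of the same arrays the corresponding shares of all genes were 4.17% and 1.44%, and again no chain passed. With the RMA differences centred on a loess trend over level, 1 chain did, Col5a2 at -0.60. By sign, 9 chains were higher and 13 lower with RMA, and 12 higher and 10 lower with dChip, with medians of -0.02 and 0.01. Of all genes above the floor 54.0% were higher and 45.9% lower with RMA, and 54.7% and 45.3% with dChip. Below the lower quartile of all genes lay 6 of the 22 chains, Col4a1, Col4a2, Col4a3, Col4a5, Col15a1 and Col5a2, or 27.3% of the chains beside the 25% of all genes that lies there by definition. Above the upper quartile lay 2, Col1a1 and Col3a1, or 9.09%, and the other 14 lay between.

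**Figure D1:**
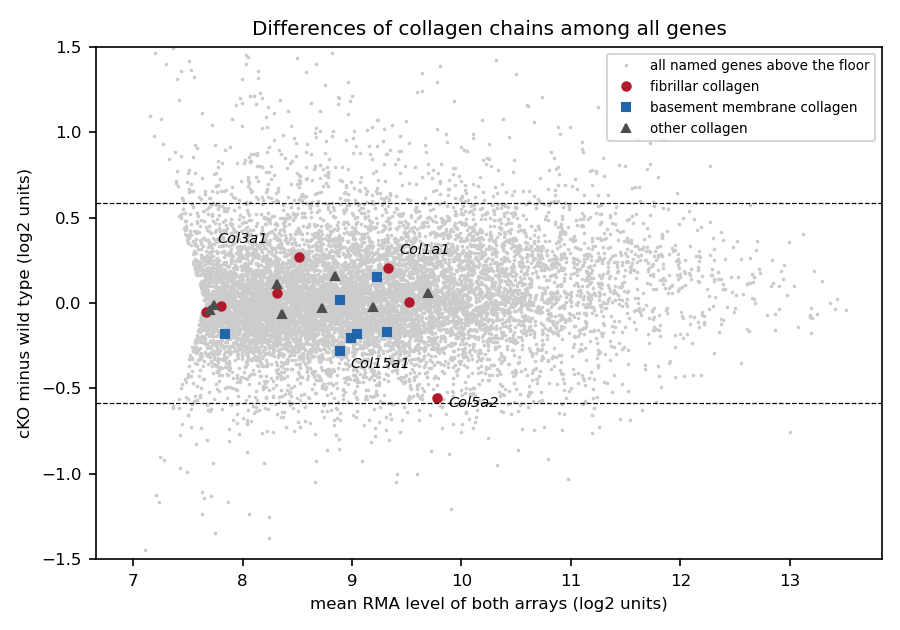
Difference between the cKO and wild type arrays (vertical axis, log2 units) against the mean level of both arrays (horizontal axis, log2 units) for all 11221 genes above the floor, in grey, and for 22 collagen chains. Dashed lines mark 1.5-fold, which no collagen chain crosses; Col5a2 lies nearest to it at -0.56, and 23 genes fall outside the vertical range.

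Basement membrane chains were the group with the lower median. Of 7 chains above the floor 5 were lower in the cKO pool and 2 higher, with a median of -0.18, beside 0.02 for all genes. Col4a1 and Col4a2, which encode the chains of the type IV collagen found in nearly all basement membranes, differed almost equally. Col4a1 read 9.41 in wild type and 9.23 in cKO, a difference of -0.17. Col4a2 read 9.13 and 8.95, a difference of -0.18. Both were thus lower in cKO by similar steps, with 0.01 between their differences.

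These chains are encoded by adjacent genes on chromosome 8 that are transcribed away from each other. Their promoter windows, taken from RefSeq on build GRCm38.p6 and reaching from 250 bases before to 50 bases after the annotated start, share 78 bases. They are shown because the pair differed alike and shares this start region. Capitals mark the CCAAT box (CCAAT, or ATTGG on the other strand) and the GC box (GGGCGG, or CCGCCC on the other strand), with no overlap between matches. The Col4a1 window lies at chr8:11312777-11313076 on the minus strand and the Col4a2 window at chr8:11312555-11312854 on the plus strand.
Col4a1: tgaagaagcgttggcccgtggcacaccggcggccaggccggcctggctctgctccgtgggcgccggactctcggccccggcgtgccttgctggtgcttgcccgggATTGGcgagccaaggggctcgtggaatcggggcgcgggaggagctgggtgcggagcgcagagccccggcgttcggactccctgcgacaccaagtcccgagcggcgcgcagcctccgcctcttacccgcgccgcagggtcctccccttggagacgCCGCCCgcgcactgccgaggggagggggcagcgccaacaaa
Col4a2: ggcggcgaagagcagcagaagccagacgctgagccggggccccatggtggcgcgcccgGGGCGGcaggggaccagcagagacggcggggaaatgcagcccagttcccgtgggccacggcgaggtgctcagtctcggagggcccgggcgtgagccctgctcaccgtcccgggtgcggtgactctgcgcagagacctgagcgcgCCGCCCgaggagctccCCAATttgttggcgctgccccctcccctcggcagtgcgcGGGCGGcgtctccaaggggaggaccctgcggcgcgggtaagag
The Col4a1 window held 2 matches and the Col4a2 window 4, and 74.0% and 73.7% of their bases were G or C, beside a median of 52.7% over all windows. A CCAAT box was found in 37.4% and a GC box in 35.7% of the 32851 windows of all genes, and in 12 and 20 of the 35 windows of the collagen genes. These windows were found for 32 of the 40 chains.

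The chains of the glomerular network did not all differ alike. Col4a3, the chain against which Goodpasture antibodies are directed, read 9.09 in wild type and 8.89 in cKO, a difference of -0.20. Col4a4, its neighbour on chromosome 1, read 8.88 and 8.90, a difference of 0.02 that was -0.03 with dChip. Col4a5, the X-linked chain that completes this network, read 7.93 and 7.75, a difference of -0.18. Col4a3 and Col4a5 were therefore lower in cKO by nearly the same step, while Col4a4 was level in both pools. The gap of -0.22 between Col4a3 and its neighbour was -0.10 with dChip. Col4a6, the partner of alpha 5 in other membranes, lay below the floor at 6.52 and 6.47.

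Col15a1 and Col18a1 encode the related collagens at the border of basement membranes and stroma, and the latter is the source of the fragment endostatin. They went in opposite directions. Col15a1 read 9.03 in wild type and 8.75 in cKO, a difference of -0.28, and its intensities in the authors' deposited table were 681 and 549, or a signed fold of -1.24 (bounds -1.18 and -1.3). Col18a1 read 9.15 and 9.30, a difference of 0.15, with a signed fold of 1.19 and bounds of 1.13 and 1.26 in the authors' deposited table. The authors give no confidence level for these bounds. They come from 1 array of each pool and so do not cover variation between animals. In the authors' deposited table all 5 type IV chains above the floor had negative signed folds, from -1.02 for Col4a4 to -1.11 for Col4a5.

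The core motif TGGGAA, which RBP-J recognises, was searched on both strands of the same windows, since RBP-J is the deleted factor. Its form on the reverse strand is TTCCCA. It was present in 25.6% of all windows and in 10 of the 35 collagen windows, or 28.6%. Of the 17 chains above the floor that had a window, 3 had a match, Col4a5, Col18a1 and Col9a2. Their differences were -0.18, 0.15 and -0.04, so windows with a match belonged to chains on both sides of 0. The Col4a5 and Col18a1 windows are shown because these chains differed in opposite directions. Capitals mark the match. The Col4a5 window lies at chrX:141475169-141475468 on the plus strand and the Col18a1 window at chr10:77113656-77113955 on the minus strand. For each gene the first window with a match is shown, and Col18a1 had at least 1 other window.
Col4a5: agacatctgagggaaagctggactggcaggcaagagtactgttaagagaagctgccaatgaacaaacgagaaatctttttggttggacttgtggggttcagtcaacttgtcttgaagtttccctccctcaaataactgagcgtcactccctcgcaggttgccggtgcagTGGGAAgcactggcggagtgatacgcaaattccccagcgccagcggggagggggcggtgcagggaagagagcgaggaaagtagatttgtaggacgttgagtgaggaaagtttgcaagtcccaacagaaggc
Col18a1: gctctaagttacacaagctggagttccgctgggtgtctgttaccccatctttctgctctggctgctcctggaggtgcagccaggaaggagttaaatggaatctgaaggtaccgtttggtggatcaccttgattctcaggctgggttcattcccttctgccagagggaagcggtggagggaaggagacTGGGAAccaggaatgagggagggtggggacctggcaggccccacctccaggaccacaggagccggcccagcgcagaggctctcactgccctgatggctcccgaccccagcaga
The match starts at base 170 of the Col4a5 window and at base 188 of the Col18a1 window, and it says nothing of whether RBP-J binds there.

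Genes of the proteins that share the basement membrane with type IV collagen were also lower in most cases. Of 12 listed, all above the floor, 8 were lower and 4 higher, with a median of -0.19, and 1 was at least 1.5-fold lower, as 1.60% of all genes were. That number was 0 with the floor at the 75th percentile and 2 with loess centring. The gene was Lama4, encoding the laminin alpha 4 chain of endothelial basement membranes, which read 9.04 in wild type and 8.45 in cKO. Hspg2, encoding the proteoglycan perlecan, read 10.34 and 9.81, a difference of -0.53. On the other side, Lama1 read 7.35 and 7.77, a difference of 0.42, and Lamb1 differed by 0.10. Lama1 passed the floor on the cKO array alone, so the size of its difference is uncertain. Pxdn, the peroxidase that crosslinks type IV collagen, differed by 0.03.

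Among the cell types listed, endothelial, podocyte and mesangial markers were mostly lower in the cKO pool. Smooth muscle and tubule markers were not lower in summed intensity. The smooth muscle sums were 9266 in wild type and 9307 in cKO, although 4 of 6 genes were lower and 2 higher. The median of the smooth muscle genes above the floor was -0.02. For tubule the sums were 30965 and 34885, with 6 of 8 genes higher. Endothelial markers were lower in 9 of 10 cases, and their intensities in the authors' deposited table summed to 32021 (wild type) and 23028 (cKO); Vwf, below the floor, was the exception. Podocyte markers were lower in 8 of 8 cases, with sums of 27955 and 22864, and mesangial and pericyte markers in 8 of 8, with sums of 15222 and 12106. Those at least 1.5-fold lower were 6 endothelial genes (Kdr, Flt1, Tek, Tie1, Egfl7 and Ehd3), the podocyte gene Nphs1, and Gata3 and Ptn of the mesangial list. Of all genes above the floor 1.60% were lower by as much, and 45.9% were lower by any amount. No listed marker was at 0 on either array, but genes below the floor also read above 0, so this does not show detection. Vwf, Lmod1, Gli1, Sox10 and S100b were below the floor. The part of these cell types in the collagen differences was not tested, and in bulk RNA fewer cells of a type and less RNA per cell cannot be told apart. The basement membrane collagens were lower by less than the endothelial, podocyte and mesangial lists, whose medians were -0.63, -0.44 and -0.43.

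**Figure D2:**
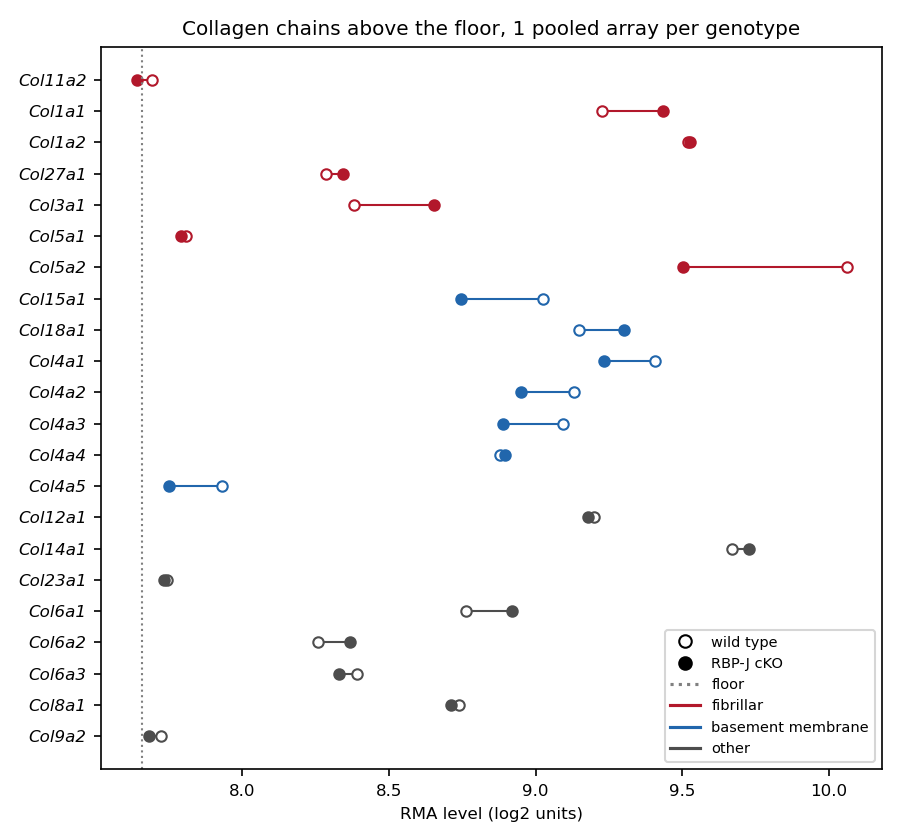
RMA level (horizontal axis, log2 units) of the 22 collagen chains above the floor on the wild type array (open circles) and the cKO array (filled circles), coloured by group, with a dotted line at the floor of 7.66. Circles are single pooled arrays and have no error; Col4a1, Col4a2, Col4a3, Col4a5 and Col15a1 lie lower in cKO, and Col1a1, Col3a1 and Col18a1 higher.

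Among fibrillar chains, 4 of 7 above the floor were higher and 3 lower, with a median of 0.01. Col3a1, encoding the type III collagen of distensible vessels, read 8.38 in wild type and 8.65 in cKO, a difference of 0.27 or 1.21-fold higher. In the authors' deposited table its intensities were 549 and 708, or a signed fold of 1.29 (bounds 1.18 and 1.41). It had the highest RMA difference of the 22 chains.

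Type I collagen is a trimer with 2 copies of the Col1a1 chain for each Col1a2 chain, and their RNAs did not differ alike. Col1a1 read 9.23 in wild type and 9.43 in cKO, a difference of 0.21. Col1a2 read 9.52 and 9.53, a difference of 0.01. The gap between these differences was 0.20 with RMA and 0.16 with dChip. In the authors' deposited table both were higher in cKO, Col1a1 with a signed fold of 1.26 and Col1a2 with 1.12. Col1a2 was therefore level with RMA and slightly higher with dChip.

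Type V chains regulate the diameter of type I fibrils. Col5a2 had the largest difference of any chain, but its probe sets disagreed. The brighter, named through the accession BC055077, read 10.06 in wild type and 9.50 in cKO, a difference of -0.56 or 1.47-fold lower. The dimmer, named through NM_007737, read 7.80 and 7.90, a difference of 0.10. The gap between the 2 differences was 0.66 with RMA and 0.53 with dChip, and the authors' deposited table gave signed folds of -1.4 and 1.03. The direction for Col5a2 as a gene therefore depends on the probe set, and which part of the transcript each one reads was not determined. Col3a1, next to Col5a2 on chromosome 1 with no coding gene between them, was higher in cKO.

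The remaining fibrillar chains above the floor were near 0. Col5a1, the main partner of Col5a2, read 7.81 in wild type and 7.79 in cKO. Col27a1, found in cartilage and in many developing tissues, read 8.29 and 8.34. Col11a2, a cartilage fibril chain, read 7.69 and 7.64 and thus passed the floor on the wild type array alone. None of these differed by more than 0.06. The cartilage chain genes Col2a1 and Col11a1 and the minor fibrillar chain genes Col5a3 and Col24a1 were below the floor.

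Among the other chains 3 of 8 above the floor were higher and 5 lower, with a median of -0.02, and with dChip 7 were higher and 1 lower with a median of 0.05. Type VI collagen forms beaded filaments that tie cells to the interstitial matrix. Col6a1 read 8.76 in wild type and 8.92 in cKO, a difference of 0.16. Col6a2, its neighbour on chromosome 10, read 8.26 and 8.37, a difference of 0.11. Col6a3, which joins both in the classical trimer and lies on chromosome 1, read 8.39 and 8.33, a difference of -0.06 that was 0.03 with dChip. The neighbours were thus higher in cKO, and the chain encoded elsewhere was nearer to level. Col18a1, separated from Col6a1 on chromosome 10 by 2 coding genes, was also higher, as given above. In the authors' deposited table the signed folds were 1.21 for Col6a1, with bounds of 1.1 and 1.34, and 1.15 for Col6a2, with bounds of 1.03 and 1.28.

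The chains that decorate fibrils or span membranes were level. Col12a1, a fibril-associated chain of dense connective tissue, read 9.20 in wild type and 9.18 in cKO. Col14a1, a fibril-associated chain of adventitia and other stroma, read 9.67 and 9.73. Col8a1, a short chain that endothelium and smooth muscle make, read 8.74 and 8.71. Col9a2, a cartilage fibril-associated chain, read 7.72 and 7.68, and the transmembrane chain gene Col23a1 read 7.74 and 7.73. All 5 lay within 0.06 of equality, and the signs for Col8a1, Col9a2 and Col23a1 turned with dChip.

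**Figure D3:**
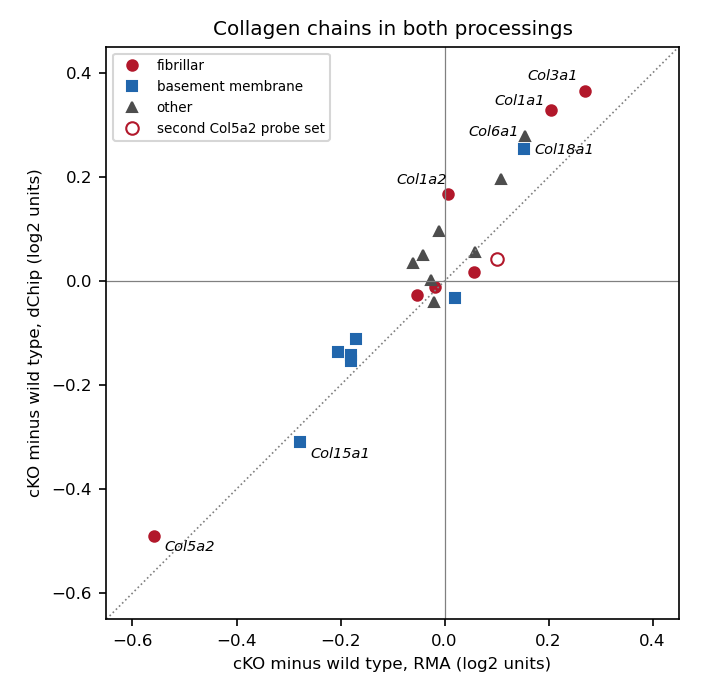
Difference between cKO and wild type (log2 units) for the 22 collagen chains with the RMA values (horizontal axis) and with the authors' dChip values (vertical axis) of the same arrays; the dotted line marks equality and the open circle is the second Col5a2 probe set. For 17 of 22 chains the sign is the same, and the 5 that turn lie within 0.06 of 0 with RMA.

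The 18 chains below the floor had levels from 6.09 to 7.58. Of these 14 were lower and 4 higher in cKO, from -0.43 for Col10a1, the collagen of hypertrophic cartilage, to 0.10 for Col11a1. None was 1.5-fold apart in either processing. At such dim levels the sizes of differences are uncertain. Besides those named, this set included Col4a6, the anchoring fibril gene Col7a1, and transmembrane chain genes such as Col17a1. Col4a3bp, kept apart because it is no collagen, read 9.58 and 9.46, and Col26a1 under its older name read 7.85 and 7.77.

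Before secretion, collagen chains are hydroxylated, glycosylated and folded in the endoplasmic reticulum. Of 19 genes listed for these steps 18 were measured and 16 were above the floor, of which 13 were lower and 3 higher, with a median of -0.06, and none was 1.5-fold apart. Ppib, the cyclophilin of the prolyl 3-hydroxylase complex, read 11.14 in wild type and 11.61 in cKO, a difference of 0.47. Crtap, another member of that complex, read 9.29 and 9.61, a difference of 0.32. Colgalt2, a galactosyltransferase of hydroxylysine, read 8.87 and 8.32, a difference of -0.55. Plod2, the lysyl hydroxylase of the telopeptides, read 10.00 and 9.64, a difference of -0.36. Members of the same process thus differed in both directions, while the collagen chaperone gene Serpinh1 was near level at -0.06.

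Outside the cell the propeptides are removed and the chains crosslinked. Of 8 such genes above the floor, among 13 listed, 4 were higher and 4 lower, with a median of 0.02. In each direction 1 was past 1.5-fold, beside 4.15% of all genes higher and 1.60% lower, and 0 were with the floor at the 75th percentile. Lox, the lysyl oxidase that starts crosslinking of fibrillar collagen, read 6.90 in wild type and 7.74 in cKO, a difference of 0.84 or 1.79-fold. Its wild type level is below the floor, which Lox passed through the cKO array alone, so this size is uncertain. Loxl1, a related oxidase that acts on elastin, differed by 0.27. Tll1, a procollagen C-proteinase gene related to Bmp1, read 8.56 and 7.79, a difference of -0.76 or 1.69-fold lower. Loxl2, an oxidase that crosslinks type IV collagen, read 9.07 and 8.54, a difference of -0.53, and the related Loxl3 differed by -0.28. The lysyl oxidase family thus had members on both sides of 0.

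Of 6 collagen receptor genes above the floor, among 9 measured, 4 were lower and 2 higher. Their median was -0.15, and over all 9 without the floor it was 0.0947. Itga2, the alpha subunit of a collagen-binding integrin, differed by -0.28 and the shared beta subunit gene Itgb1 by -0.20. The receptor tyrosine kinase genes Ddr1 and Ddr2 differed by 0.18 and 0.14. Of 7 genes of collagen breakdown 4 were above the floor, with differences from 0.01 to 0.54 and a median of 0.19. At the stricter floor Mmp2 alone was left. Below the floor Mmp8 and Fap were lower, at -0.27 and -0.21, and Mmp9 higher, at 0.42. Mmp2, a gelatinase that also cleaves type IV collagen, read 9.35 in wild type and 9.89 in cKO, a difference of 0.54 that was 0.76 with dChip. The cathepsin gene Ctsk and the collagenase genes Mmp13 and Mmp14 differed by 0.19, 0.18 and 0.01. Mmp13 passed the floor on the cKO array alone, and Mmp14 was at -0.01 with dChip.

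Genes of matrix proteins that bind collagen held larger differences than the chains. Of 10 above the floor 6 were higher and 4 lower, with a median of 0.12. In each direction 1 was past 1.5-fold, beside the same 4.15% and 1.60% of all genes. Fn1, encoding the fibronectin on which collagen fibrils assemble, read 9.27 in wild type and 10.29 in cKO, a difference of 1.02 or 2.03-fold. Postn, encoding the matricellular protein periostin, read 9.20 and 8.34, a difference of -0.86 or 1.82-fold lower. Prelp, a collagen-binding leucine-rich proteoglycan, differed by 0.34, and Tnxb, a tenascin that binds collagen fibrils, by -0.55. Fn1 was therefore higher by far more than Col1a1 or Col3a1.

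Markers of the remaining cell types listed did not share 1 direction. Fibroblast markers were higher in 2 of 7 cases, with summed intensities in the authors' deposited table of 7748 in wild type and 6630 in cKO. Without Cd34, which endothelium also expresses, the sums were 4027 and 3869. Smooth muscle markers were higher in 2 of 6, with sums of 9266 and 9307. Macrophage markers were higher in 7 of 7, with sums of 2505 and 5322. Tubule markers were higher in 6 of 8, with sums of 30965 and 34885, and nerve and Schwann cell markers in 1 of 5, with sums of 2217 and 2044. Those at least 1.5-fold higher were Fbln1 of the fibroblast list, Slc26a4 and Krt18 of the tubule list, and 5 macrophage genes. The macrophage genes were Adgre1, Csf1r, C1qa, Lyz2 and Ctss. Among all genes above the floor, 4.15% were higher by as much and 54.0% were higher by any amount. Adgre1, C1qa and Ctss passed the floor on the cKO array alone, and their wild type levels lay below it. Gli1, Lmod1, Sox10 and S100b of these lists were below the floor. The part of these cell types in the collagen differences, such as those of Col1a1 and Col3a1, was not tested.

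**Figure D4:**
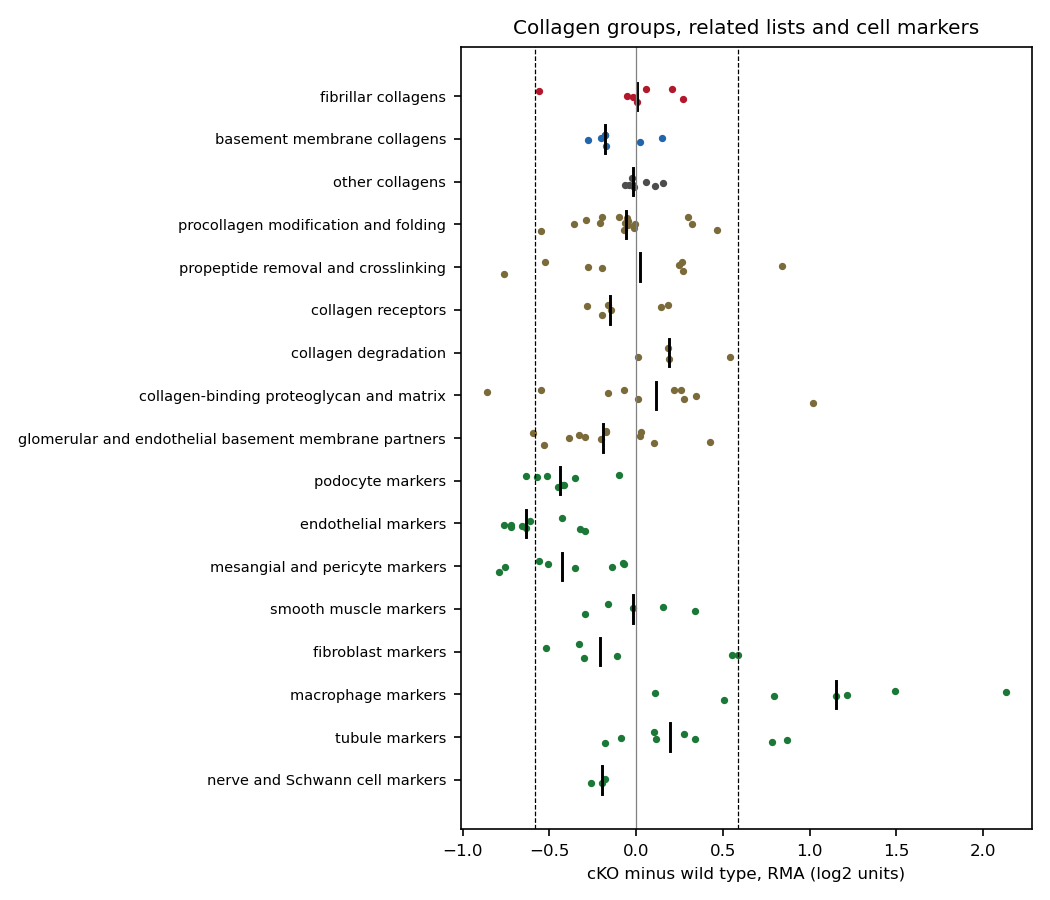
Difference between cKO and wild type (horizontal axis, RMA log2 units) for members above the floor of the collagen groups, related lists and cell markers; points are genes, shifted at random in height, black bars are medians and dashed lines mark 1.5-fold. The basement membrane collagens have a median of -0.18, the fibrillar collagens 0.01, the endothelial markers -0.63 and the macrophage markers 1.15. Of the macrophage markers, Adgre1, C1qa and Ctss passed the floor on the cKO array alone.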

How the data were processed

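Per the submitters' processing notes, RMA, R 2.15.0 and limma 3.12.1 were used, with no role given. The deposited log2 values cover 34760 probe sets, with medians of 7.25 in wild type and 7.21 in cKO. A second table holds linear intensity values for 35512 probe sets that the authors computed with dChip, per the file headers. It also holds the authors' signed fold score and its bounds. The sources used here name no dChip settings, build or annotation release. RMA equalises the arrays' distributions and hides any change common to most genes.

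Symbols are the text before the first colon of the annotation. Both tables share 24612 named probe sets and 22314 symbols, and the probe set with the highest mean of both arrays was used. RefSeq tables (GRCm38.p6) gave current names, gene order and promoter windows. The floor was the median of the brighter array over named probe sets, and 1.5-fold is 0.58 in log2 units. All chains above the floor are named. Of other lists, members past 1.5-fold and the 2 highest and 2 lowest are named, except that cell markers are named only past 1.5-fold and otherwise given as counts and sums. Pxdn, Serpinh1, Loxl3, Mmp8, Mmp9, Fap, Cd34, Acta2 and Myh11 were chosen after their values were seen, and so were chains named below the floor. Members and lists were chosen with earlier results of these data known. Counting was tested on simulated data. Alternatives were dChip values, means over probe sets, other floors, centring and 2-fold. Software was pandas 2.3.3 and statsmodels 0.14.6 under Python 3.11.15, with matplotlib 3.10.9 for plots.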

Additional observations from a re-analysis of the deposited data

How the results depend on the processing

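No paired analysis was possible because each group has 1 array, and for the same reason no replicate could be left out. All alternatives were planned, except leaving out Cd34 or C1qa from its marker list, which were chosen after seeing the data. A median or difference was labelled moved when it shifted by over 0.10 in log2 units. That limit is the spread of the gap between dChip and RMA differences over all genes above the floor. A count was labelled moved when it changed by over 1.5-fold, or to or from 0. Reversal was defined only for a value of at least 1.5-fold. No collagen group median and no single chain reached that, so none of these could be labelled reversed. Of the counts and medians 136 alternative values stayed and 8 moved. Of the values for single chains 81 stayed and 7 moved. Many of these values could not move. Median centring shifted every chain by the same 0.02, and averaging probe sets could change only Col5a2. Among the counts, the 2-fold setting could only give 0 chains, since none passed 1.5-fold. With loess centring 1 collagen chain, Col5a2 at -0.60, was at least 1.5-fold lower, against 0, and 2 basement membrane partners were, against 1. With the floor at the 75th percentile (9.07), which keeps fewer genes, the partners past 1.5-fold numbered 0, as did the crosslinking genes in each direction (0 higher and 0 lower), and the degradation median was 0.54. With dChip 1 degradation gene, Mmp2, was past 1.5-fold. With no floor the receptor median was 0.0947, against -0.15. With dChip, Col18a1, Col1a1, Col1a2, Col23a1, Col3a1 and Col6a1 were higher than with RMA, at 0.25, 0.33, 0.17, 0.10, 0.37 and 0.28. The mean over its probe sets put Col5a2 at -0.23. The basement membrane median ran from -0.20 with median centring to -0.14 with dChip over its alternatives. The fibrillar median ran from -0.02 to 0.03 and the other median from -0.04 to 0.05, and both changed sign. The cause of these moves was not tested, except that stricter floors leave fewer genes.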

Other observations

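Several proteins carry a collagen-like triple helix without being collagen chains. A list of 29 genes was drawn up after values had been seen. It also holds Emid2, the older name of the collagen gene Col26a1, at -0.07, which the following counts include. Of the 29 genes 10 were above the floor, with 5 higher and 5 lower in the cKO pool and a median of 0.09. Of these 10 genes 4 were at least 1.5-fold higher, where 4.15% of all genes above the floor were. They were C1qtnf3 and the 3 chains of complement C1q, which starts the classical pathway and is made by macrophages. C1qa passed the floor on the cKO array alone, with its wild type level just under it. C1qa read 7.66 in wild type and 8.81 in cKO, C1qb 8.27 and 9.48, and C1qc 7.73 and 8.84. Their differences were 1.15, 1.21 and 1.11, beside the higher macrophage markers given above. That list holds C1qa itself, and its median of 1.15 was 1.01 without it. The part of macrophages was not tested. C1qtnf3, a secreted protein with a collagen-like stretch and a C1q domain, read 8.80 and 9.75, a difference of 0.95. Its relative C1qtnf7 read 8.94 and 8.49, a difference of -0.45. Colec12, a scavenger receptor with a collagen-like stem, differed by 0.26, and Emid1 by -0.30.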
